A study of Mus musculus with 30 samples.

Results

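The subunits of the respiratory chain that are encoded in the nucleus were followed in bone marrow-derived dendritic cells (BMDCs), as 88 of the 43629 genes counted. Members were protein-coding genes outside the mitochondrial chromosome whose symbol begins with Ndufa, Ndufb, Ndufc, Ndufs or Ndufv (complex I, 39 genes), Uqcr (complex III, 8 genes), Cox4 to Cox8 (complex IV, 19 genes) or Atp5 (complex V, 18 genes), and Sdha to Sdhd (complex II, 4 genes). Assembly factors of the Ndufaf series were left out, as were 17 genes of matching symbol that are not protein-coding. The rule used names only, no measured value.

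Polyadenylated RNA was sequenced from 5 WT cultures, named s846, s850, s855, s856 and s864, and from 5 Cacnb3-/- cultures, named s843, s851, s852, s853 and s865, labelled as knockouts of the β3 subunit of voltage-gated calcium channels. Each culture gave 3 libraries, named ctrl, 0p5h and 24h, from cells grown for 6 days and given 500 µM extracellular ATP for 30 min, with harvest right away or 24 h later. The treatment field contradicts the names of the first 2 sets, since it puts the ATP pulse on ctrl and the vehicle on 0p5h. Which of them had received ATP cannot be told from the labels, so the sets are called by their names. The study's methods give adult mice of both sexes, granulocyte-macrophage colony-stimulating factor in the medium, and the C57BL/6J substrain for WT and C57BL/6N for Cacnb3-/-, so genotype and substrain cannot be told apart. Nothing in the labels ties a culture's name to a single animal. The p-values below therefore measure the spread between cultures as labelled.

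Complexes I to IV of the inner mitochondrial membrane pass electrons from NADH and succinate to oxygen, and complexes I, III and IV pump protons while they do so. Complex V, the ATP synthase, lets the protons flow back and makes ATP. The chain is built from 2 genomes: the mitochondrial chromosome encodes 13 of its proteins, among them parts of the proton-pumping core, and all other subunits come from nuclear genes, most of them small accessory proteins around that core. The share of polyadenylated RNA that comes from the mitochondrial chromosome was the measure against which the nuclear members were set.

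Promoters of many nuclear subunit genes are known to bind NRF1 and ETS factors such as GABP, which act on mitochondrial genes in general. RefSeq promoter windows (GRCm38.p6, 250 bases before to 50 bases after the start of transcription) were matched to 68 of the 88 members, 13 of them by an older symbol. The NRF1 core CGCATGCG, which reads the same on both strands, was in the windows of 9 members (13.2%) and of 559 of all 27025 genes with a window (2.07%). The ETS core CCGGAAG, or CTTCCGG on the other strand, was in those of 16 members (23.5%) and of 2683 of all genes (9.93%). Both were found in 5 members and neither in 48. A match is a description of these letters in these windows, and no binding was measured here. The 180 bases before the start site are shown for 6 members that the results below turn on or that show a motif, with motif letters in capitals. They are Ndufb7 (chr8:83566578-83566757, plus strand), Ndufa11 (chr17:56717582-56717761, plus strand), Ndufa5 (chr6:24527691-24527870, minus strand, no match), Uqcrh (chr4:116075071-116075250, minus strand), Cox6a1 (chr5:115348959-115349138, minus strand, both motifs) and Atp5pd (chr11:115419920-115420099, minus strand).
Ndufb7: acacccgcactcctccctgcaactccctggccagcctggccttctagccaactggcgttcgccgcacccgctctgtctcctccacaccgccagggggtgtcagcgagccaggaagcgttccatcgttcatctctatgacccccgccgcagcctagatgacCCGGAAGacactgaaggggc
Ndufa11: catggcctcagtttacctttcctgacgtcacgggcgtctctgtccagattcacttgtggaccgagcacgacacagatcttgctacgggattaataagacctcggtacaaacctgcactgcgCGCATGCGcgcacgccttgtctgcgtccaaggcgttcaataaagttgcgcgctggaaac
Ndufa5: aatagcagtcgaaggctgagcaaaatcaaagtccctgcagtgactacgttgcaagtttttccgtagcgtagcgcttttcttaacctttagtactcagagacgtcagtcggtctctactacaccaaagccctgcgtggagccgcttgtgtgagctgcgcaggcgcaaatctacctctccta
Uqcrh: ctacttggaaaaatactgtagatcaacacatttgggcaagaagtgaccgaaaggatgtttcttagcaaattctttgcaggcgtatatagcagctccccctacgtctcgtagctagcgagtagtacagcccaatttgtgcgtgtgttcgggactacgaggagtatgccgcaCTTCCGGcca
Cox6a1: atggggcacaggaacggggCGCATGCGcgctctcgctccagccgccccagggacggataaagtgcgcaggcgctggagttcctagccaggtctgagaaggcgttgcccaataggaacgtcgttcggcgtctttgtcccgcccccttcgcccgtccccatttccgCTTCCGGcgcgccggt
Atp5pd: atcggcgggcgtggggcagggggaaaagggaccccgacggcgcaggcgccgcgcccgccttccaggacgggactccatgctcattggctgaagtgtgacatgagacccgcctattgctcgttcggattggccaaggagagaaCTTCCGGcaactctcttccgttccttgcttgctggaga
Ndufb7, Ndufa5, Uqcrh and Atp5pd are members whose level followed the mitochondrial share of counts in at least 1 set of libraries, as described below. Of these 4, 3 hold the ETS core and Ndufa5, which followed the share in every set, holds neither motif. A motif was among the reasons for showing a member, so this count cannot tell whether motif and share go together.

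The libraries held 8237393 to 32164225 counts on genes, with a median of 19556920. Cacnb3-/- libraries were shallower than WT ones in the set named ctrl (medians of 16202000 and 25364047; two-sided exact permutation test of 5 against 5 libraries, p = 0.0238), with p = 0.373 in 0p5h and p = 0.198 in 24h. The targeted gene was counted in all 30 libraries, with 573 to 1330 CPM, the usual depth-scaled count, here with library sizes adjusted by edgeR's trimmed mean of M values, in those labelled Cacnb3-/- and 1030 to 2140 CPM in WT. Its log2 fold change lay between -0.27 and -0.77 over the 3 sets, and none passed an adjusted p of 0.05. Nnt, which carries a known deletion in C57BL/6J, was at 6.37 to 11.5 CPM in WT and at 5.82 to 11.5 CPM in Cacnb3-/-. All 10 dendritic cell markers checked were expressed, with Cd74 at a mean of 12700 CPM and Ccr7 at 3970 CPM. Macrophage markers were also present (C1qb at a mean of 236 CPM, Adgre1 at 55.7 CPM, Lyz2 at 3930 CPM), as were granulocyte markers (S100a9 at 167 CPM, S100a8 at 89 CPM and Ngp at 51.5 CPM, with Elane at 0.341 CPM) and Kit of the mast cell list (121 CPM). T cell (Cd3e, 0.0997 CPM) and red cell (Hbb-bs, 1 count in all) markers were at or near 0. In bulk RNA, fewer cells of a type and less RNA per cell cannot be told apart.

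Levels of the members were compared per length, as CPM per kilobase of exon, averaged over the 30 libraries. Complex IV held the 3 highest members: Cox8a at 478.9, Cox6b1 at 408.5 and Cox4i1 at 387.7 CPM per kb, all small nuclear subunits around the catalytic core that the mitochondrial chromosome encodes. Uqcrh, the hinge protein of complex III that contacts cytochrome c1, followed at 362.7. The ranges of these 4 over the libraries overlapped (272.4 to 579.5 for Cox4i1 and 203.9 to 607.9 for Uqcrh), so their order is not firm. In complex I the highest members were Ndufa2 (266.7), Ndufa6 (253.2) and Ndufb9 (156.3), and in complex V the small membrane subunit Atp5mj (211.7), the F1 alpha subunit Atp5f1a (180.3) and the inhibitor Atp5if1 (128.1). In complex II the anchor Sdhd reached 179.9, against 54.95 for the flavoprotein Sdha and 27.8 for the iron-sulfur protein Sdhb. Uqcr10 (111.2) and Uqcrfs1 (110) were next to Uqcrh in complex III. The median over all members was 34.39 CPM per kb in complex I, 41.38 in II, 53.14 in III, 29.48 in IV and 94.9 in V. In complex IV the 5 members that no comparison tested pull it down, and the median of its 14 others was 79.63. These levels are uncertain for members with near-identical pseudogenes, since no option to count reads with several alignments or on several genes was set, and exon length is the union over all annotated isoforms. Exon bases are shared with another annotated gene in 25 of the 88 members, over 50% of the exon in 1 of them (Cox5b-ps).

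**Figure D1:**
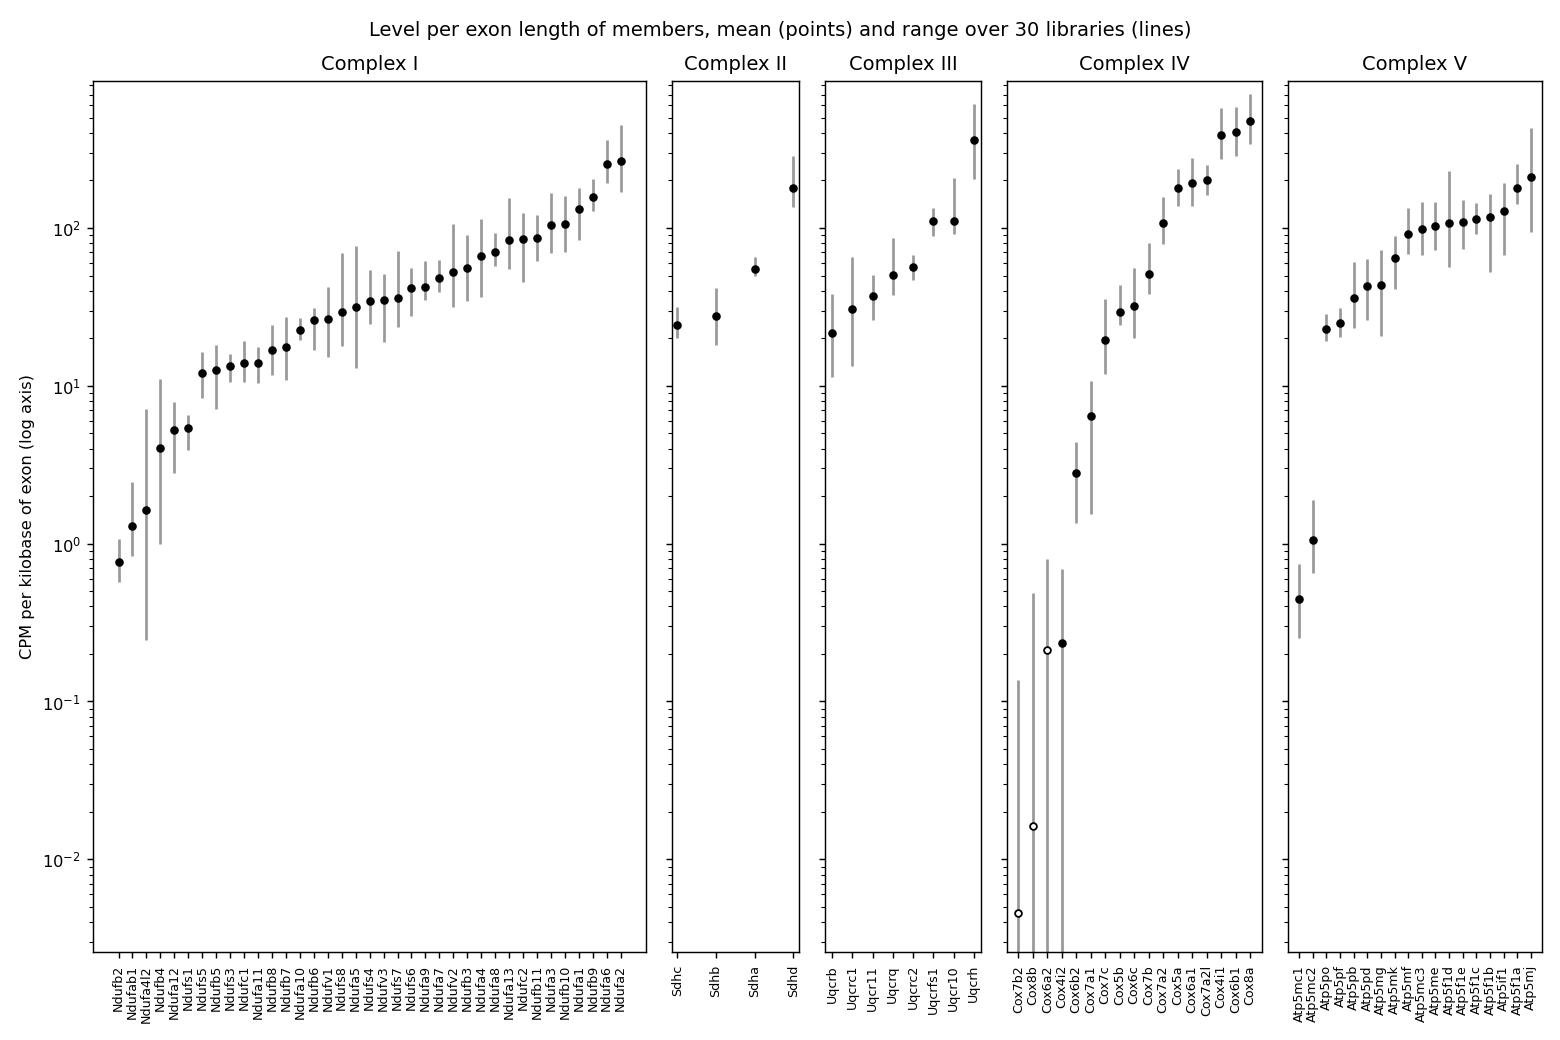
Level of each member in CPM per kilobase of exon (log axis), by complex; points are means over the 30 libraries, lines span the lowest to the highest library, lines that reach the lower edge include libraries at 0, open points mark members that no comparison tested, and the 3 members with no count and 1 that is not reported here are not drawn. Means reach 478.9 for Cox8a, while tissue isoforms of complex IV such as Cox8b, at 0.01621, lie at the lower end.

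Cox8c and Ndufb11b had no count in any library, which over the 576227759 counts of all libraries allows up to 0.00521 CPM in reads with 1 alignment. Reads with several alignments were not set to be counted, so the bound does not cover those. Cox5b-ps also had no count, but 387 of its 390 exon bases lie in another annotated gene, so its 0 sets no bound on its level. Cox7b2 had 1 count and Cox8b 2 counts. The muscle form Cox6a2 had 79 counts in 27 libraries and the lung form Cox4i2 103 counts in 28 libraries. These low forms stood beside their ubiquitous counterparts Cox8a (mean of 261 CPM) and Cox4i1 (600.9 CPM). The first 6 of these genes were tested in no comparison and Cox4i2 only when the libraries of a culture were summed, so each comparison within a set tested 81 members. The isoforms Cox7a1 (2.346 CPM), Cox6b2 (3.083 CPM) and Ndufa4l2 (1.569 CPM) were low but counted in all 30 libraries. Of the 3 genes for the identical mature c-ring protein, Atp5mc1 and Atp5mc2 were at 2.176 and 1.774 CPM, against 213.9 CPM for Atp5mc3.

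The share of counts on the mitochondrial chromosome varied 23.4-fold between libraries, from 0.7065% to 16.53%, and was higher in Cacnb3-/- libraries. In the set named ctrl it was 1.534%, 3.495%, 1.258%, 1.074% and 4.487% in the 5 WT cultures in order of their number, and 4.827%, 5.232%, 8.985%, 10.42% and 2.611% in the Cacnb3-/- cultures. In 24h the WT cultures had 2.555%, 4.21%, 1.822%, 0.7065% and 5.609%, and the Cacnb3-/- cultures had 16.53%, 5.995%, 10.48%, 13.58% and 3.209%. The groups overlapped in each set through culture s865, the lowest Cacnb3-/- culture, and the WT cultures s850 and s864. WT averaged 2.37% ± 1.53 in ctrl, 2.28% ± 1.27 in 0p5h and 2.98% ± 1.94 in 24h, against Cacnb3-/- means of 6.42% ± 3.2, 5.86% ± 3.06 and 9.96% ± 5.43 (SD, n = 5). The difference passed the test in each set (two-sided exact permutation test, p = 0.0397, 0.0317 and 0.0317; adjusted p = 0.0397 for each over 4 tests, where the smallest p that 5 against 5 allows is 0.00794). Leaving out 1 culture gave adjusted p values of 0.00794, without culture s865, to 0.0873, and 6 of the 10 omissions moved the adjusted p of each difference above 0.05. Within a sequencing lane, as the table's headers give it, every group held 1 to 3 libraries. All Cacnb3-/- shares lay above all WT shares in lane 1 and in lane 3 of each set, and in lane 2 of ctrl, 0p5h and 24h (2.159% to 6.752% against 1.13% to 1.978% in 0p5h).

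The members together took 0.7551% to 1.086% of the counts outside the mitochondrial chromosome, a 1.44-fold range, far narrower than that of the mitochondrial share. Complex I varied from 0.1916% to 0.3227%, complex II from 0.05338% to 0.0792%, complex III from 0.09111% to 0.1437%, complex IV from 0.1535% to 0.2579% and complex V from 0.2572% to 0.3134%. In the sets named ctrl and 0p5h the summed level of complexes I, III and IV was higher in libraries of higher mitochondrial share. With genotype in the fit, a doubling of the mitochondrial share went with a log2 change of 0.158 in complex I, 0.145 in III and 0.16 in IV in ctrl, and of 0.162, 0.152 and 0.167 in 0p5h. The values for complexes II and V were 0.0625 and 0.0549 in ctrl and 0.0525 and 0.053 in 0p5h. In 24h they were 0.0336, 0.0104, 0.0407, -0.00263 and -0.0237 for complexes I to V. There the genotypes went opposite ways when taken alone: complex I had -0.0292 in WT and 0.126 in Cacnb3-/-, complex II -0.0514 and 0.101, complex III -0.0188 and 0.128, and complex IV -0.0484 and 0.0647, while complex V had -0.0294 and -0.0153. One WT library of that set stood apart: culture s856 had the lowest mitochondrial share of all 30 libraries (0.7065%) with the highest share of members among WT libraries (0.9829%). Summed levels over chosen members are given as a description, with no test.

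**Figure D2:**
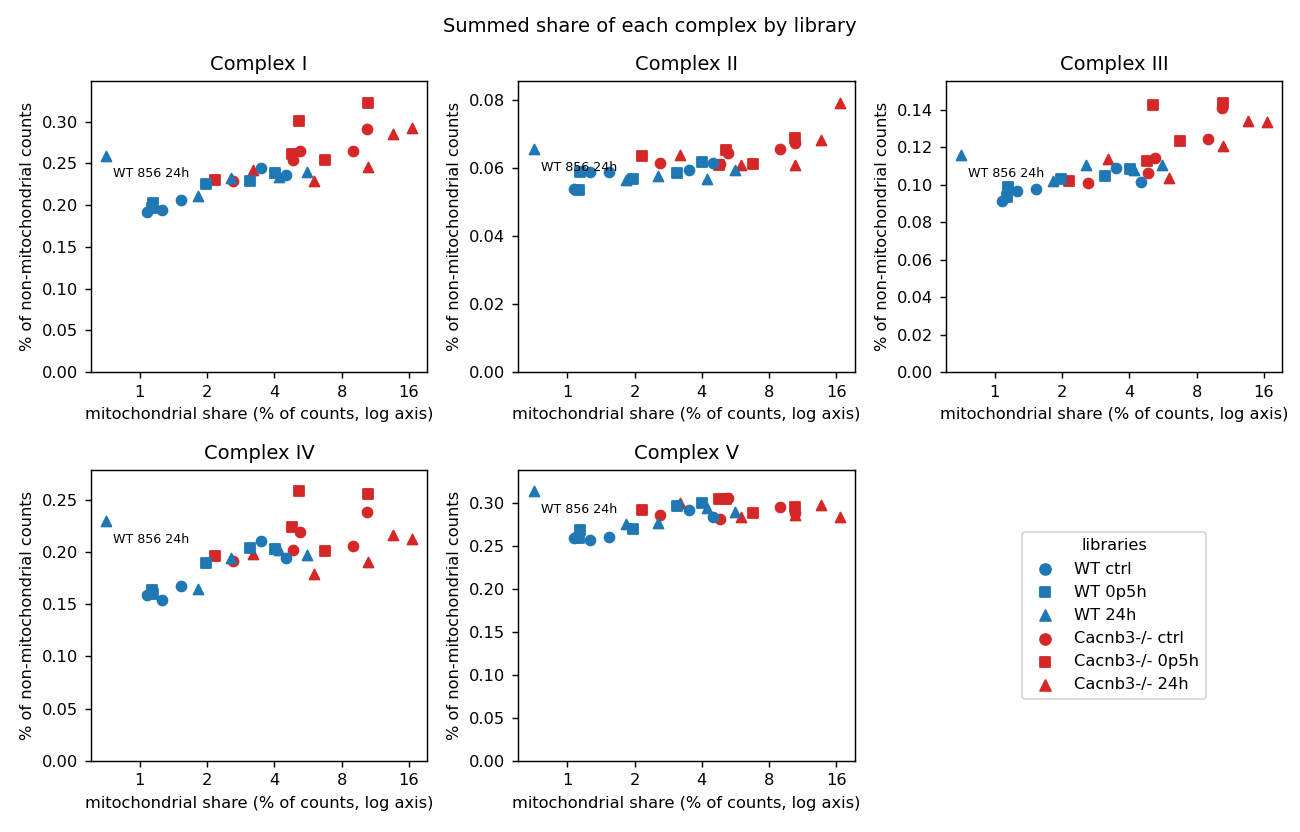
Summed share of each complex in the counts outside the mitochondrial chromosome (percent) against the mitochondrial share of all counts (percent, log axis), 1 point per library, with WT and Cacnb3-/- and the 3 sets marked as in the legend. Complexes I, III and IV lie higher in libraries of high mitochondrial share in ctrl and 0p5h, while complex V spans only 0.2572% to 0.3134%.

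The comparison of genotypes asked whether subunit transcripts differed between the cultures labelled Cacnb3-/-, in which Cacnb3 itself was still counted, and WT. No member passed an adjusted p of 0.05 in any set by edgeR's quasi-likelihood test with Benjamini-Hochberg adjustment, and neither did any other gene: 0% of 13022 genes were called in ctrl, 0% of 12806 in 0p5h, 0% of 12706 in 24h and 0% of 14833 when the 3 libraries of a culture were summed. The smallest adjusted p of any member was 0.243, 0.251, 0.0515 and 0.127. At an unadjusted p under 0.05, 17 members were higher and 1 lower in Cacnb3-/- in ctrl, where 7.95% and 8.65% of all genes were. In 0p5h the counts were 30 and 0, with 8.36% and 8.06% of all genes, and in the summed libraries 25 and 4 of 82, with 11.6% and 11.7%. In 24h they were 20 and 11, near the 20.1% and 18.3% of all genes. The median log2 fold change over members was 0.194 in ctrl, 0.239 in 0p5h, 0.0295 in 24h and 0.184 in summed libraries, beside 0.0263, 0.0234, 0.0126 and 0.0233 over all genes tested. With the mitochondrial share as a covariate, chosen as an alternative, the medians were -0.0284 in ctrl, 0.111 in 0p5h and 0.0872 in 24h. DESeq2 called 0, 2, 21 and 8 members in the 4 comparisons, where it called 1.73%, 0.938%, 26.4% and 7.23% of all genes. Higher values in Cacnb3-/- were not particular to the members. Summed cytosolic ribosomal protein genes had medians of 16400 CPM in WT and 19900 CPM in Cacnb3-/- in ctrl, and of 18200 and 22000 CPM in 0p5h. Summed citric acid cycle genes went the other way, at 1260 and 1150 CPM in ctrl. These sums were not tested.

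In 24h, the 4 members given next missed the threshold with all 10 libraries and passed it without culture s865. Without that culture, edgeR called 31 members (21 higher, 10 lower; 35.3% of all genes), and without WT culture s864 it called 12 (18.7% of all genes). Atp5mj, a small subunit at the base of the synthase's membrane part, was at 57.6, 61.3, 43.5, 34.5 and 66.9 CPM in WT and at 156, 78.1, 119, 151 and 63.4 CPM in Cacnb3-/-. Only culture s865 lay within the WT range. The log2 fold change was 1.12 ± 0.268 (SE; adjusted p = 0.0515). Ndufa5, an accessory subunit in the matrix arm of complex I, was at 26.3, 24.4, 19.3, 13.4 and 28.2 CPM in WT and at 78.9, 32.9, 42.7, 61.1 and 27.9 CPM in Cacnb3-/-, again with only culture s865 inside the WT range (1.13 ± 0.29, adjusted p = 0.0515). Ndufv2, a core iron-sulfur subunit of complex I, had 63 to 95.6 CPM in WT and 88.1 to 212 CPM in Cacnb3-/- (0.889 ± 0.225, adjusted p = 0.0515). Uqcrc1, the core 1 protein of complex III, went the other way: its values were 139, 129, 166, 271 and 118 CPM in WT and 55.5, 91.8, 63.3, 65.7 and 155 CPM in Cacnb3-/- (-0.919 ± 0.305, adjusted p = 0.0601). Here too culture s865 lay within the range of the other genotype.

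The members of smallest p in each complex had fold changes of like direction in ctrl and 0p5h. In complex I these were Ndufc2 (0.418) and Ndufb5 (0.443) in ctrl and Ndufa5 (0.86) and Ndufb5 (0.487) in 0p5h. In complex III, Uqcrb, which binds ubiquinone, had 0.411 and 0.412, and Uqcrh 0.568 and 0.685, in ctrl and 0p5h. In complex IV, Cox6b1, which faces the intermembrane space, had 0.367 and 0.433, and Cox6c 0.404 and 0.513. In complex V, Atp5mj had 0.632 and 0.698 and Atp5pb, part of the peripheral stalk, 0.5 and 0.492. None of them passed the test, and the 3 sets of a culture are not independent of each other. For complex II the values were Sdhc 0.194 and Sdhd 0.17 in ctrl, Sdhd 0.245 and Sdhb -0.227 in 0p5h, and Sdhb -0.437 and Sdhd 0.411 in 24h. In 24h Uqcrb had 0.901, Cox6c 0.727, Cox8a -0.283 and Atp5pb 0.654. In the summed libraries the pairs were Ndufa5 0.851 and Ndufb5 0.469, Sdhc 0.192 and Sdhd 0.232, Uqcrb 0.518 and Uqcrh 0.589, Cox6c 0.493 and Cox6b1 0.337, and Atp5mj 0.738 and Atp5pb 0.508. Of 22 members followed whatever their values, the 19 that were tested within sets lay between -0.375 (Cox7a1) and 0.968 (Ndufa4l2) in ctrl, between -0.336 (Atp5f1b) and 1.26 (Ndufa4l2) in 0p5h and between -0.919 (Uqcrc1) and 0.452 (Ndufa4) in 24h, and Cox4i2, tested only in summed libraries, had 0.49 ± 0.572. Ndufa4l2 was low, and Cacnb3-/- culture s865 stood apart at 6.43 CPM in ctrl and 6.86 CPM in 0p5h. The other Cacnb3-/- cultures had 0.236 to 2.16 and 0.447 to 2.48 CPM, against 0.422 to 2.02 and 0.489 to 1.99 CPM in WT.

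**Figure D3:**
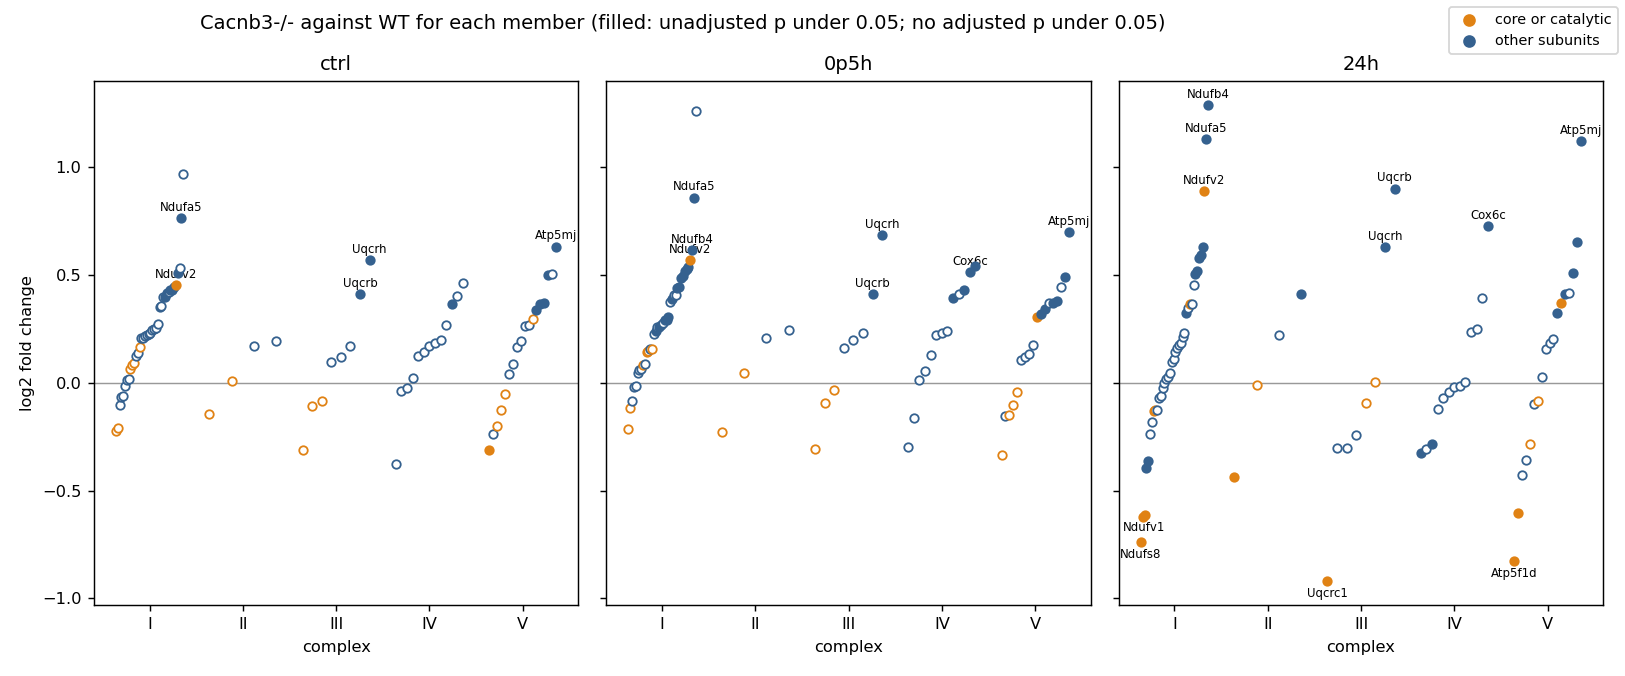
Log2 fold change of Cacnb3-/- against WT for each tested member, by complex, in the 3 sets; filled points have an unadjusted p under 0.05, and colour separates core or catalytic members from the others. None passed an adjusted p of 0.05; medians over members were 0.194 in ctrl, 0.239 in 0p5h and 0.0295 in 24h.

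The 17 core or catalytic members, a grouping drawn up after the values were seen, are core subunits of complexes I and III, the catalytic pair of complex II and the F1 subunits of complex V. Their median log2 fold change was -0.084 in ctrl, -0.0421 in 0p5h and -0.132 in 24h, and that of the other members 0.231, 0.284 and 0.16. With the mitochondrial share as a covariate the gap between core and other members was smaller. Their medians were -0.0115 and -0.0406 in ctrl, 0.0997 and 0.12 in 0p5h, 0.0318 and 0.1 in 24h, and 0.0521 and 0.0469 in summed libraries. The share also differed between genotypes, and what the split rests on was not tested. With each library's trend with exon length removed, the medians were -0.105 and 0.167 in ctrl, -0.0925 and 0.154 in 0p5h, and -0.0962 and 0.0315 in 24h. In the main fit of 24h, at an unadjusted p under 0.05, 3 core members were higher and 7 lower, against 17 and 4 of 64 others. As this split was chosen on these data, it carries no test.

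Changes between the sets were tested within each genotype. Without pairing the libraries of a culture, no member was called in any of the 6 comparisons. On data simulated with culture effects of a chosen size, this unpaired fit recovered 0% of 200 genes changed 2-fold. That size was not matched to these libraries, so 0% does not give the recovery to be had here. The lack of calls in the unpaired fit is not taken to show that changes were small. The calls over all genes were 0.290% (0p5h against ctrl), 0.0152% (24h against ctrl) and 1.19% (24h against 0p5h) in WT, and 0.384%, 0% and 0.880% in Cacnb3-/-. Libraries of the same culture deviated together from their group means in 29 of 30 pairs (median correlation of 0.609 over 13755 genes), so the culture number was also used as a block, except for 24h against ctrl in Cacnb3-/-, where the correlation for culture s843 was 0.0746. With the block, 2 members were called higher in 0p5h than in ctrl in WT and 0 lower, where 3.29% and 2.67% of all genes were called higher and lower. They were Atp5if1, the inhibitor that blocks reverse action of the synthase (log2 change of 0.255 ± 0.0625, adjusted p = 0.0379), and Atp5f1e, the F1 epsilon subunit (0.168 ± 0.0426, adjusted p = 0.0439), each higher in 5 of 5 cultures. Atp5if1 had 114, 183, 111, 97.6 and 172 CPM in ctrl and 164, 197, 119, 111 and 213 CPM in 0p5h. The WT cultures differed from each other in this gene by more than the sets did. In Cacnb3-/- the block called 0 members in the same comparison (1.62% of all genes higher, 0.729% lower), and for 24h against ctrl in WT also 0 (2.41% and 3.64%). The test of the difference between genotypes called none for this change, as given below.

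Where no member was called, the members of smallest p in each complex are given with their log2 changes. For 0p5h against ctrl in Cacnb3-/- these were Ndufa8 (0.194) and Ndufa9 (0.186), Sdhd (0.147) and Sdhc (0.099), Uqcrq (0.256) and Uqcrfs1 (0.12), Cox8a (0.251) and Cox5b (0.174), and Atp5mg (0.282) and Atp5po (0.145), with an adjusted p of 1. All 19 of the members followed whatever their values had positive changes there, from 0.0148 for Sdhb to 0.251 for Cox8a. For 24h against ctrl in WT they were Ndufs6 (0.31) and Ndufa11 (0.22), Sdhb (0.173) and Sdha (0.0518), Uqcrq (0.361) and Uqcr11 (0.237), Cox5b (0.253) and Cox4i1 (0.291), and Atp5if1 (0.375) and Atp5pf (0.129), with a smallest adjusted p of 0.597. For 24h against ctrl in Cacnb3-/- the values went both ways: Ndufs4 (0.509) and Ndufs7 (-0.377), Sdhd (0.216) and Sdhb (-0.121), Uqcrb (0.442) and Uqcr11 (-0.235), Cox8a (-0.314) and Cox6c (0.358), and Atp5f1d (-0.437) and Atp5pb (0.355), with a smallest adjusted p of 0.444. The median over members was 0.147, 0.122 and -0.00303 in these comparisons, beside -0.00868, -0.00393 and -0.0128 over all genes.

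For 24h against 0p5h, the block called 1 member lower and 0 higher in WT (6.78% and 4.52% of all genes) and 17 lower and 4 higher of 81 in Cacnb3-/- (14.4% and 14.2% of all genes). In WT the call was Ndufv3, an accessory subunit of the NADH-binding module (-0.32 ± 0.0886, adjusted p = 0.0484; lower in 5 of 5 cultures). In Cacnb3-/- Ndufv3 also had the smallest adjusted p: its values were 127, 95.6, 72.2, 104 and 98.4 CPM in 0p5h and 83.3, 65, 47.2, 68.8 and 72.5 CPM in 24h. It was lower in 5 of 5 cultures (-0.549 ± 0.0805, adjusted p = 0.00103). The others that fell were Ndufa13, Ndufa6, Ndufa7, Ndufb11 and Ndufa4l2 (-0.465, -0.246, -0.251, -0.343 and -1.29) among accessory subunits of complex I, Ndufs7 (-0.495) and Ndufv1 (-0.391) in its core, and Uqcr11 (-0.368) and Uqcrc1 (-0.494) in complex III. In complex IV Cox8a (-0.545), Cox4i1 (-0.269) and Cox7a2l (-0.305), a factor that joins complexes into supercomplexes, fell, and in complex V the F1 subunits Atp5f1b (-0.311) and Atp5f1d (-0.636), the membrane subunit Atp5mg (-0.615) and the stalk subunit Atp5po (-0.239). Cox8a had 348, 337, 221, 385 and 287 CPM in 0p5h and 197, 202, 187, 234 and 238 CPM in 24h, lower in 5 of 5 cultures. Not every fall was seen in all cultures. Ndufs7 and Uqcr11 rose in s852 (40.4 to 41 CPM and 17.4 to 18.1 CPM), and Atp5mg rose in s865 (27.3 to 29.6 CPM). The 4 that rose were Ndufb4 (0.775), Ndufs4 (0.331), Ndufv2 (0.312) and Ndufa4 (0.276), of which Ndufs4 rose in 4 of 5 cultures and the other 3 in all. With the block and the GC trend removed, 18 members were called, of which 9 were among these 21: Ndufb4 higher, and Ndufv3, Ndufa4l2, Ndufv1, Uqcrc1, Cox8a, Cox7a2l, Atp5f1d and Atp5mg lower. The other 12 lost their call. The median over the 81 members was -0.133, beside 0.000538 over all genes, and cytosolic ribosomal protein genes, another group of short and abundant transcripts, had 24 of 84 called lower and 3 higher (median of -0.205). Of the 19 tested members followed whatever their values, 8 were called, and they lay between -1.29 (Ndufa4l2) and 0.276 (Ndufa4), while Sdha had -0.00719 and Uqcrfs1 -0.0492.

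The change between sets was not shown to differ between genotypes for any member. In the test of interaction 0% of 13465 genes were called for 0p5h against ctrl, 0% of 13536 for 24h against ctrl and 0% of 13424 for 24h against 0p5h, and 0 members with the block. Unadjusted p values under 0.05 with a change lower in Cacnb3-/- were found for 0, 3 and 10 members, where 0.171%, 2.06% and 2.78% of all genes had them. The members of smallest p for 24h against 0p5h were Ndufs7 (-0.761 ± 0.299) and Ndufa11 (-0.369), Sdhb (-0.205) and Sdhd (0.172), Uqcr11 (-0.527) and Uqcrq (-0.496), Cox8a (-0.508 ± 0.191) and Cox5b (-0.358), and Atp5mg (-0.796) and Atp5f1d (-0.678), with a smallest adjusted p of 0.68. For 24h against ctrl they were Ndufs7 (-0.679) and Ndufa11 (-0.377), Sdhb (-0.289) and Sdhd (0.245), Uqcr11 (-0.467) and Uqcrb (0.494), Cox8a (-0.405) and Cox5b (-0.324), and Atp5f1d (-0.619) and Atp5mg (-0.467), with a smallest adjusted p of 0.753. For 0p5h against ctrl all members had an adjusted p of 1, with Atp5mg at 0.321 and Sdhb at -0.0893. At this size of experiment the self-test recovered 40.5% of 2-fold interactions simulated on 13424 genes. The simulation held no culture effects, unlike these libraries, so 40.5% does not give the recovery to be had here.

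Each member was then set against the mitochondrial share of the same library, within a set, with genotype in the fit and mitochondrial rows removed before normalization. The slope is the log2 change of a member per doubling of the mitochondrial share. In ctrl, 18 members were called with positive slopes and 1 with a negative slope of 81, where 4.41% and 5.05% of all 13018 genes were called. In 0p5h the counts were 2 and 0 (0.750% and 0.688% of all genes), and in 24h 15 and 9 (13.6% and 11.4%). The 24h counts were 18.5% and 11.1% of the members, near the shares of all genes. The median slope over members was 0.132 in ctrl, 0.0953 in 0p5h and -0.00214 in 24h, beside 0.00484, -0.00233 and 0.0116 over all genes. In all, 35 members were called in at least 1 set, 8 of them in both ctrl and 24h, 2 in all 3 sets, and none with opposite signs. The sets share cultures, so these calls are not independent of each other.

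**Figure D4:**
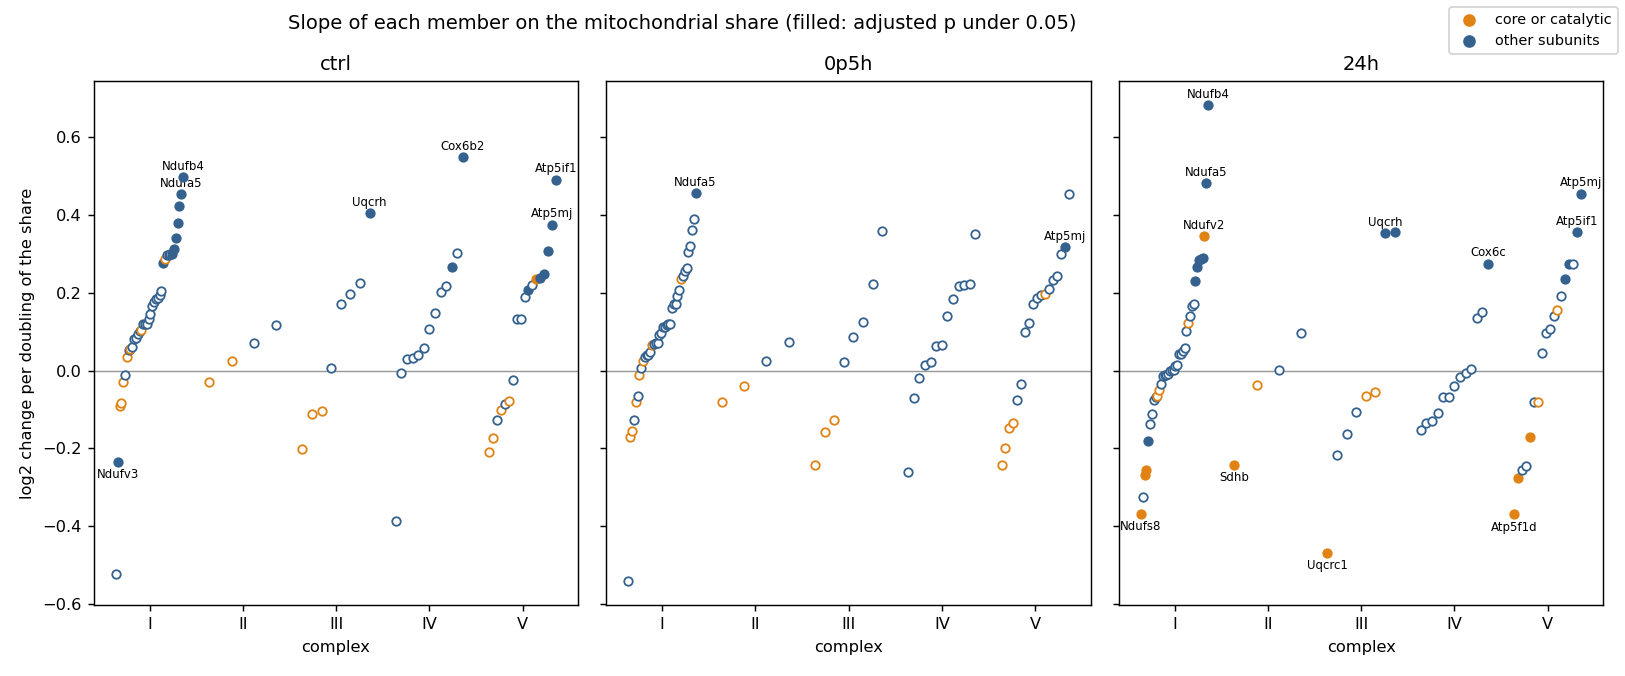
Slope of each tested member on the mitochondrial share, as the log2 change per doubling of the share, by complex and set; filled points passed an adjusted p of 0.05, and colour separates core or catalytic members from the others. In 24h, 15 of 81 members were called with positive and 9 with negative slopes, near the 13.6% and 11.4% of all genes. In 0p5h only Ndufa5 and Atp5mj were called.

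Ndufa5 and Atp5mj were the members called in all 3 sets. Ndufa5 had 20, 26.7, 19.1, 15.4 and 27.8 CPM in the WT ctrl libraries and 26, 32.8, 46.3, 51.6 and 25.7 CPM in the Cacnb3-/- ones. In WT the cultures s850 and s864 were highest in both Ndufa5 and the mitochondrial share, and in Cacnb3-/- s852 and s853. Its slope was 0.454 ± 0.0743 in ctrl (adjusted p = 0.00958), 0.456 ± 0.0633 in 0p5h (adjusted p = 0.0237) and 0.482 ± 0.0776 in 24h (adjusted p = 0.00309), and the call held in 17, 12 and 17 of 17 alternatives. Atp5mj had 49.9, 74.4, 47, 46.8 and 62.7 CPM in WT ctrl and 59.2, 83.1, 114, 107 and 64.4 CPM in Cacnb3-/- ctrl; cultures s850 and s864 and cultures s852 and s853 were again the highest of their genotype. Its slopes were 0.375 ± 0.0837, 0.317 ± 0.065 and 0.455 ± 0.0624 (adjusted p = 0.0259, 0.0475 and 0.00188), held in 12, 7 and 17 of 17 alternatives. With the trend of fold change with exon length removed, which matters for a transcript of 365 exon bases, its slope in 0p5h was 0.172 (adjusted p = 0.265).

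**Figure D5:**
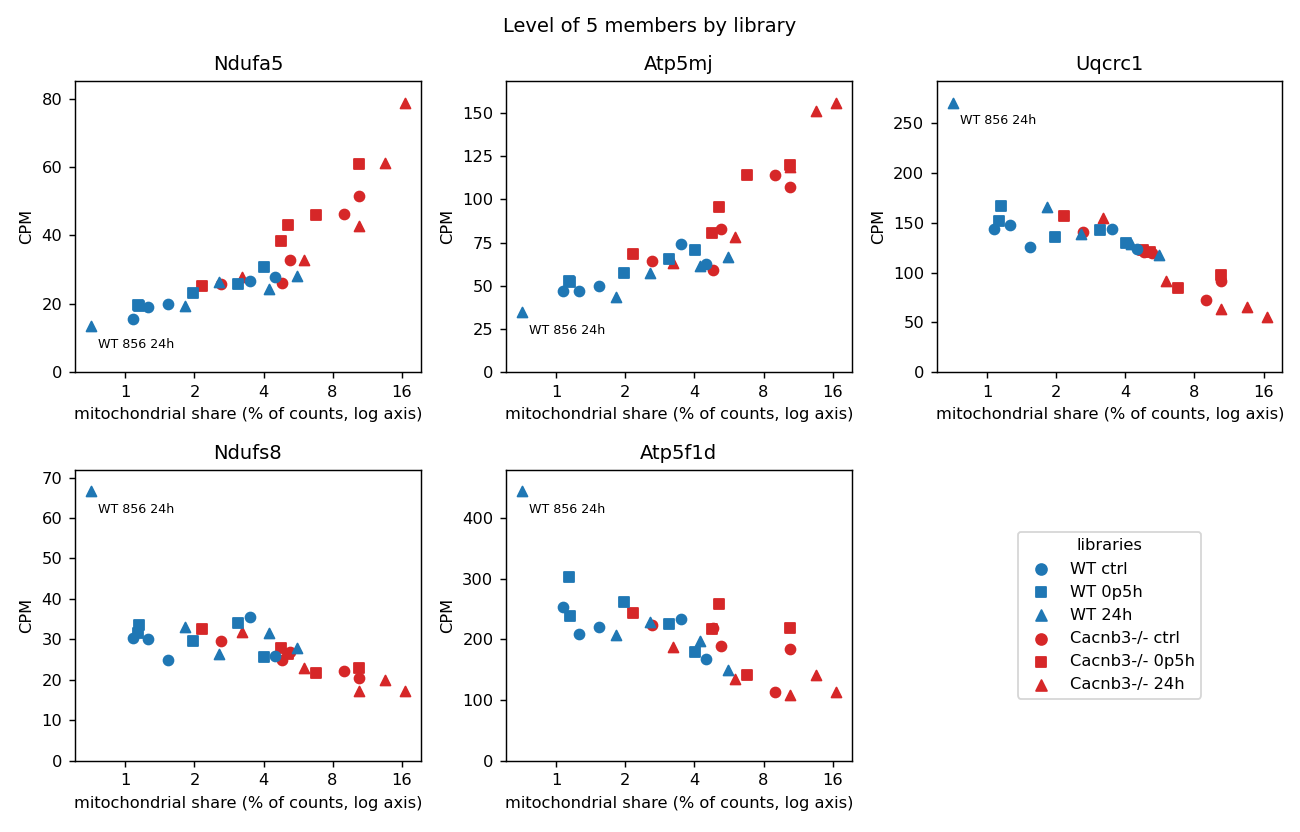
CPM of Ndufa5, Atp5mj, Uqcrc1, Ndufs8 and Atp5f1d against the mitochondrial share of counts (percent, log axis), 1 point per library, with genotypes by colour, sets by shape and s856 of 24h marked. Ndufa5 and Atp5mj lie higher in libraries of high mitochondrial share, and Uqcrc1, Ndufs8 and Atp5f1d lie lower, most of all in 24h, where WT culture s856 is at 271, 66.6 and 444 CPM.

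In ctrl the positive slopes called in complex I were those of Ndufb4 (0.497), Ndufa5, Ndufb7 (0.423), Ndufa4 (0.38), Ndufb3 (0.34), Ndufa2 (0.313), Ndufa1 (0.3) and Ndufs6 (0.276), which are all accessory subunits. Ndufa4 is now known to sit in complex IV, whatever its name. Uqcrh (0.404) was called in complex III, and Cox6b2 (0.548), the testis form, and Cox6b1 (0.266) in complex IV. Complex V had 7: the inhibitor Atp5if1 (0.491), Atp5mj, the stalk subunits Atp5pb (0.307) and Atp5pd (0.237), the c-ring gene Atp5mc3 (0.247), the F1 epsilon subunit Atp5f1e (0.235) and the membrane subunit Atp5mf (0.208). No member of complex II was called, with Sdhc at 0.118 and Sdha at 0.0237. Ndufv3 (-0.235) was the only member called with a negative slope. These calls were few in number without 1 culture: leaving out each culture in turn left 3 (without WT s856) to 14 calls, against 19 with all. Ndufa5, Ndufb7 and Atp5if1 were called under all 17 alternatives. With the sequencing lane as a covariate 5 members were called, and with the trend with exon length removed 9.

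In 24h, most core members called had negative slopes and most of the others called had positive ones. Of the 17 core or catalytic members 8 were called with negative slopes: Uqcrc1 (-0.468 ± 0.0562, adjusted p = 0.00149), Atp5f1d (-0.37), Ndufs8 (-0.368), Atp5f1b (-0.277), Ndufs7 (-0.268), Ndufv1 (-0.255), Sdhb (-0.243) and Atp5f1a (-0.17). Ndufv2 (0.345) was the only core member called with a positive slope. Of the 64 others 14 were called with positive slopes and 1, Ndufa9 (-0.18), with a negative one. The positive ones were Ndufb4 (0.683), Ndufa5, Ndufc2 (0.288), Ndufab1 (0.286), Ndufa4 (0.284), Ndufb5 (0.267) and Ndufa12 (0.229) of the complex I series, Uqcrb (0.355) and Uqcrh (0.353), Cox6c (0.275), and Atp5mj, Atp5if1 (0.355), Atp5pd (0.274) and Atp5pb (0.235). Ndufs8, a core subunit with 2 iron-sulfur clusters, was at 26.3, 31.5, 33, 66.6 and 27.9 CPM in WT and at 17.3, 22.9, 17.3, 20 and 31.9 CPM in Cacnb3-/-. Atp5f1d, the F1 delta subunit, was at 228, 198, 208, 444 and 150 CPM in WT and at 113, 135, 109, 141 and 188 CPM in Cacnb3-/-. In both genes WT culture s856, of the lowest mitochondrial share, was far above the other libraries of the set, and Cacnb3-/- culture s865, of the lowest share in its genotype, was highest in its own.

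These counts depended on cultures s856 and s865. Without WT s856, 13 members were called with positive and 4 with negative slopes. The latter were Uqcrc1, Ndufv1, Sdhb and Atp5f1b, so 4 of 17 core members were called lower in place of 8. Without Cacnb3-/- s865 the counts were 8 and 5, with 4 core members lower. The other 8 omissions each left 8 core members lower and 1 higher. With lane as a covariate 7 and 2 members were called, the 2 being Uqcrc1 and Sdhb. Uqcrc1, Uqcrh, Ndufa5, Ndufb5, Atp5mj and Atp5if1 were called under all 17 alternatives. The members called with positive and negative slopes also differed in sequence makeup: the median exon length was 1334 and 2239 bases and the median GC content 47% and 53.3%, with 49.3% over all genes tested. With the trend of each library with GC content removed, 22 members were called: 7 core members lower and 0 higher, and 10 others higher and 5 lower (Atp5mg, Cox7b, Cox7c, Ndufa9 and Ndufb6), against 14 and 1 without that correction. Atp5pb then had -0.0443 (adjusted p = 0.692) and Ndufa4 0.0512 (adjusted p = 0.712).

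Other genes of mitochondria were set against the share in the same fit. Of the assembly factors 3 of 52 were called with positive slopes and 1 with a negative one in ctrl. The counts were 1 and 0 of 51 in 0p5h and 8 and 4 of 51 in 24h. Of 17 genes of the citric acid cycle the counts were 0 and 1, 0 and 0, and 3 and 7. Mitochondrial ribosomal protein genes had 9 and 1 of 76, 0 and 0 of 75, and 11 and 6 of 75, and regulators of mitochondrial genes such as Tfam and Nrf1 had 0 and 0, 0 and 0, and 2 and 2 of 14. Cytosolic ribosomal protein genes had 19 and 0 of 84 in ctrl, 7 and 0 of 84 in 0p5h, and 17 and 7 of 83 in 24h, with medians of 0.202, 0.175 and 0.0589. The medians over the members were lower in ctrl and 0p5h, at 0.132 and 0.0953; the difference was not tested. Among genes of the chain outside the naming rule, Cycs, cytochrome c, had slopes of 0.596 (adjusted p = 0.0227), 0.853 (adjusted p = 0.0824) and 1.01 (adjusted p = 0.00413), from 0.234 to 5.19 CPM, and Cyc1, the catalytic cytochrome c1 of complex III, -0.107, -0.157 and -0.272 (adjusted p = 0.364, 0.246 and 0.00473). Cycs was near the floor, against 41.8 to 127 CPM for Cyc1. No option to count reads with several alignments was set, so the slopes of Cycs rest on few reads and are uncertain.

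Markers of cell type moved with the mitochondrial share too. In ctrl the granulocyte markers S100a8, S100a9 and Ly6g were called with positive slopes (0.643, 0.655 and 0.779), 3 of 7 tested. The others tested of that list were positive too but not called. In 0p5h and 24h no granulocyte marker was called. There S100a9 had 0.422 and 0.00624. In 24h Prtn3, Ngp and Ltf had negative slopes (-0.148, -0.024 and -0.166), and S100a8, Camp and Ly6g positive ones (0.218, 0.0089 and 0.0842). Of the 10 dendritic cell markers, only the class II regulator Ciita was called in ctrl, with a negative slope (-0.54). Flt3, Batf3, Zbtb46 and Dpp4 had positive slopes there (0.47, 0.268, 0.248 and 0.033), and the rest of that list negative ones. Of all genes, 4.41% were called with positive and 5.05% with negative slopes in ctrl. In 24h, 4 of 10 dendritic cell markers were called lower, Ciita (-0.699), Cd74 (-0.3), Ccr7 (-0.279) and H2-Ab1 (-0.267), and 1 higher, Zbtb46 (0.25). Of 10 macrophage markers, Csf1r (-0.549) was called lower. In 24h 13.6% of all genes were called with positive and 11.4% with negative slopes. The summed level of the dendritic cell markers was 21200 to 36300 CPM in WT and 16100 to 27500 CPM in Cacnb3-/- in 24h, and that of the granulocyte markers 131 to 512 CPM in WT and 207 to 440 CPM in Cacnb3-/- in ctrl. No marker of these lists was at 0 in all libraries. The part of cell composition, of sequencing depth and of RNA quality in the slopes was not tested.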

How the data were processed

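Polyadenylated RNA of 30 libraries was measured as raw counts per gene, deposited as 1 table. Per the file headers, the authors' counter was featureCounts 1.5.1, run over the exons in GRCm38 gene models (Ensembl release 79); neither strand nor multiple alignments were set, so a member and an overlapping antisense gene cannot be told apart. Their processing notes name STAR 2.4, DESeq2 and mm10. Samples were grouped by genotype and library name. Symbols were matched for 38984 of the 43629 genes (89.35%).

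Counts were tested with edgeR 4.0.16 in R 4.3.3 (filterByExpr, trimmed mean of M values, quasi-likelihood test, Benjamini-Hochberg adjustment over all genes, adjusted p of 0.05, no fold minimum). The mitochondrial share was compared with an exact permutation test. Alternatives used DESeq2 1.42.0, limma-voom (limma 3.58.1), other filters and size factors, GC and exon length trends, the mitochondrial share as a covariate and each culture left out; the lane covariate, limma-voom and the trend offsets for slopes were chosen after seeing the data. Same-numbered libraries correlated over 0.1 in 29 of 30 pairs (median of 0.609, against -0.219 for other numbers). On simulated data, edgeR recovered 79% of 200 genes changed 2-fold between genotypes. That simulation gave every gene the same spread between libraries, unlike these data, so 79% does not give the recovery to be had here. Between sets, with culture effects of a chosen size simulated, edgeR recovered 72% with the block and 0% without it. The slope fit recovered 98.5% of genes changed 2-fold per doubling of the share. That is steeper than any member slope called here, so the recovery of those is not known.

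Members and lists were chosen with earlier results of these data known. Named genes were the members called where 25 or fewer were, otherwise the 2 of smallest p in each complex, 22 members whatever their values, the 3 highest per length in each complex, untested members, Cacnb3, Nnt, Cyc1 and Cycs. Other genes were named after their values were seen. The values of 1 member are not reported here.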

Additional observations from a re-analysis of the deposited data

Results flagged for a closer look

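In 174 groups of 5 libraries, from 22 members and 7 measures of the library in 6 groups, 7 had 1 library far from the others of its group; chance flags about 1 in 20 groups. Of these, 4 came from WT culture s856 in 24h, the library of lowest mitochondrial share (0.7065%). There Ndufv1 was at 107 CPM against 69.5 to 74.7 in the other 4 cultures, Ndufs8 at 66.6 against 26.3 to 33, Sdha at 254 against 202 to 214 and Atp5f1d at 444 against 150 to 228. Over all 82 members tested in any comparison, 30 of 492 groups had such a library, and 13 of the 30 were s856 in 24h, each time as the highest value. These 13 were 5 core or catalytic members and 8 others, among them Uqcr10 at 120 CPM against 57.4 to 62, Uqcrq at 159 against 79.5 to 96.2 and Cox7a2 at 109 against 68.8 to 79.6. Ndufb4 was at 2.81 CPM in Cacnb3-/- culture s865 in 0p5h, against 4.98 to 5.81. Cox7a1 was at 3.86 CPM in Cacnb3-/- culture s843 in 24h, against 1.48 to 1.96. Ndufa4l2 was at 1.56 CPM in WT culture s846 in 24h, against 0.656 to 0.891.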

How the results depend on the processing

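Counts of called members moved with the tool, the block, the genotype term and the omission of single cultures; the causes were not tested. The share of all genes called in the same fit stands in parentheses. For Cacnb3-/- against WT, where edgeR called 0, DESeq2 called 2 in 0p5h (0.938%), 21 in 24h (26.4%) and 8 in summed libraries (7.23%), and in 24h 9 were called with no filter (4.89%), 8 with the exon length trend removed (11.3%) and 25 with all 30 libraries in 1 fit (29%). Leaving out a culture gave 0 to 31 in 24h and 0 to 13 in summed libraries, the highest without culture s865 (35.3% and 5.23%). With the replicate block, and with the block and the GC trend removed, 2 and 3 members were called for 0p5h against ctrl in WT (5.96% and 6.75%), 0 and 2 for 24h against ctrl in WT (9.72% for the latter), 1 and 2 for 24h against 0p5h in WT (11.3% and 15.8%), and 21 and 18 for 24h against 0p5h in Cacnb3-/- (28.6% and 24%), of which only 9 were shared. There DESeq2 and the fit of all 30 libraries each called 1 (3.27% and 2.64%). For 24h against ctrl in Cacnb3-/-, where the pairing was not met, the block called 3 (8.54%). The block changed no other call.

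For the slopes, a 2-fold minimum left 0 in each set. Without the genotype term 38, 34 and 42 were called in ctrl, 0p5h and 24h (28.3%, 22.9% and 50.2%). The exon length trend left 9 in ctrl (8.66%) and 1 in 0p5h (1.33%), the lane covariate 5 in ctrl (3.58%) and 9 in 24h (5.75%). In 0p5h DESeq2 called 12 (8.5%), the GC trend 4 (3.24%) and the share of the 13 protein-coding mitochondrial genes 0 (0%). Omitting a culture gave 3 (without s856, 2.03%) to 14 in ctrl, 0 to 5 in 0p5h and 13 to 24 in 24h. The difference in mitochondrial share ranged from 3.04 to 5 percentage points in ctrl, 2.43 to 4.51 in 0p5h, 5.34 to 8.67 in 24h and 4.07 to 6.06 for culture means. The slope of Atp5pb in 24h turned to -0.0443 with the GC trend removed. For Cox8c and Ndufb11b, with no count, depth sets the limit given above, for reads with 1 alignment only.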
